A study of Mus musculus with 6 samples.

Results

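The oxidative phosphorylation genes were taken as the protein-coding mouse genes whose symbol starts with Nduf, Uqcr or Atp5, is one of the lettered Cox4 to Cox8 genes, or is Sdha, Sdhb, Sdhc or Sdhd, together with the mt-Nd, mt-Co, mt-Atp and mt-Cyt genes of the mitochondrial genome. This rule found 93 of the 43309 genes in the table, all of them nuclear. None of the 13 protein-coding genes of the mitochondrial genome has a row among the counts used, and their transcripts are not analysed here.

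The respiratory chain passes electrons from NADH through complex I, or from succinate through complex II, to complex III, cytochrome c and complex IV, where oxygen is reduced. Complexes I, III and IV move protons across the inner mitochondrial membrane, and complex V, the ATP synthase, uses their return to make ATP. Complex II is coded by the nucleus alone, whereas the other complexes combine nuclear subunits with subunits translated inside the mitochondrion, and pluripotent stem cells are known for relying strongly on glycolysis.

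The counts came from mouse embryonic stem cells, measured in 6 libraries of the TruSeq Stranded mRNA kit. The cells were of strain J1 (129SV), grown in medium with serum on gelatin and without feeder cells. In the control group, 3 lines carried the Zbtb24 wild-type genotype (2lox/+), and in the other group 3 lines were labelled Zbtb24 knockout (1lox/1lox), so that the controls carry a 2lox allele beside a + allele. Lines were described as independently derived clones, and each gave 1 library from 2 µg of total RNA with 8 cycles of PCR. On that description, p-values measure the spread between such lines. That spread was small. Pairs of libraries within a group gave a mean chi-square per gene of 1.14 to 2.24, where counting error alone gives about 1. The square root of the common dispersion was 0.020, so that small differences could pass the test. Whether libraries so alike came from separately derived lines cannot be told from the counts. The question was which genes differ in level between the genotypes.

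Library totals were 25042261 to 28838924 counts. The targeted gene, Zbtb24, had 510, 512 and 489 counts in control replicates 1 to 3 and 888, 925 and 1039 in knockout replicates 1 to 3 (log2 fold change 0.99, SE 0.05, edgeR quasi-likelihood test, adjusted p = 4.32e-23). These counts run over every exon of the gene, the part absent from the 1lox allele is not given in the sources used here, and the direction goes against the label, so this group is named by its label throughout, as the libraries labelled knockout. Of 10 embryonic stem cell markers, 9 rose and 1 fell, and their summed level was 5123 to 5233 cpm (the count scaled to a fixed library size by TMM) in controls and 6524 to 6569 cpm in the libraries labelled knockout. The summed level of 7 fibroblast or feeder markers was 56.0 to 59.5 cpm against 9.53 to 10.1 cpm, with all 6 tested lower and Lum at 0 in every library, and that of 7 muscle or heart markers was 23.7 to 25.7 cpm against 9.07 to 9.46 cpm. The neural progenitor sum was 106 to 109 cpm against 39.9 to 41.1 cpm, but 2 of the 4 tested rose and 2 fell (median log2 fold change 0.39, against the direction of the sum). The trophoblast sum was 65.2 to 67.1 cpm against 76.7 to 79.2 cpm, with 2 of 5 higher and 2 lower (median -0.72, also against the sum), and the extraembryonic endoderm sum was 10.7 to 11.8 cpm against 9.69 to 11.7 cpm. The part of these cells in the results below was not tested, and in bulk samples fewer cells of a type and less RNA per cell cannot be told apart.

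Most oxidative phosphorylation genes were slightly higher in the libraries labelled knockout. Of the 91 members tested, 70 rose (76.9%), 6 fell (6.59%) and 15 were not called at an adjusted p of at most 0.05, where 34.4 percent of all 16823 genes tested rose and 35.2 percent fell. Among the 5442 genes whose mean count was 1000 or more, 46.5 percent rose and 32.8 percent fell. The changes were small. The median log2 fold change of the members was 0.19, with quartiles of 0.08 and 0.35, and the median over all genes tested was -0.00. Cox6a2 and Cox8b, the muscle forms of 2 complex IV subunits, had at most 2 counts in any library and were not tested. Every library labelled knockout lay above every control library for 69 members, and below for 4, where 35.3 percent and 36.2 percent of all genes tested were separated in these directions.

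Added over the 93 members, the level was 10728, 10947 and 10917 cpm in controls and 12379, 12344 and 12409 cpm in the libraries labelled knockout. The groups did not overlap, and the ratio of the means was 1.14. As a share of all counted fragments, the members took 1.10% ± 0.015 in controls and 1.22% ± 0.0044 in the other group (SD, n = 3 each). Each complex was higher in sum, with no overlap between groups. The ratio was 1.26 for complex I subunits, 1.21 for complex I assembly factors, 1.24 for complex II, 1.11 for complex III, 1.10 for complex IV and 1.09 for complex V. Without the members on chromosome 1 and on chromosome 6 beyond 100 Mb, where genes in general were higher, it was 1.17 for complex I subunits, 1.16 for complex II and 1.07 for complex IV. The ratios of the complexes were not tested against each other.

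**Figure D1:**
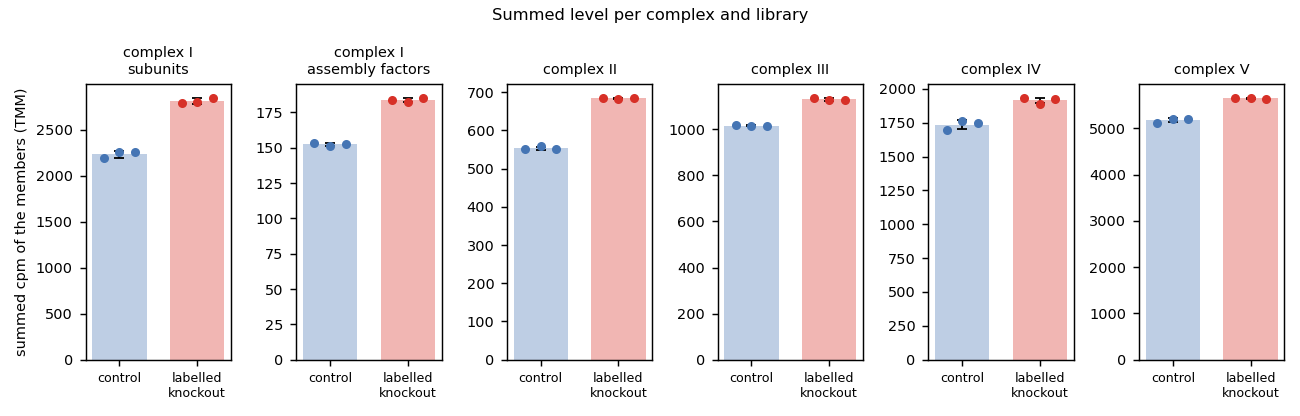
Summed level of the members of each complex in cpm (y axis, from 0 and with its own scale in each panel), with a point per library, bars at the group mean and error bars of 1 SD (n = 3 per group). In each of the 6 panels the 3 libraries labelled knockout lie above the 3 control libraries.

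Complex I oxidises NADH. Of its 36 subunit genes, 28 rose, 1 fell and 7 were not called, with a median log2 fold change of 0.24. Of the 7 nuclear core subunits, which carry the redox centres and the quinone site, 6 rose, and of the 29 supernumerary subunits, which surround that core, 22 rose and 1 fell. Ndufs1, an iron-sulfur subunit of the NADH arm, was at 158, 158 and 157 cpm in controls and 248, 246 and 256 cpm in the libraries labelled knockout (log2 fold change 0.67, SE 0.03, edgeR adjusted p = 9.48e-28). The groups were completely separated. Ndufv1, which binds NADH, had a log2 fold change of 0.19, and Ndufs7, which carries the last iron-sulfur cluster before the quinone, one of -0.00 with overlapping groups (adjusted p = 0.993).

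Among the supernumerary subunits, Ndufb3 had the highest log2 fold change. It was at 27.6, 25.5 and 26.3 cpm in controls and 45.9, 44.4 and 45.3 cpm in the libraries labelled knockout (log2 fold change 0.77, SE 0.04, edgeR adjusted p = 2.77e-21). Ndufa10 went from 98.9, 101 and 102 cpm to 168, 172 and 167 cpm (log2 fold change 0.75), and Ndufb9 from 71.0, 72.0 and 74.7 cpm to 119, 118 and 120 cpm (log2 fold change 0.71). In these genes the spread within a group was far below the distance between groups. Ndufa6 was the only complex I subunit that fell, from 40.7, 41.3 and 40.5 cpm to 37.6, 35.7 and 35.1 cpm (log2 fold change -0.18, SE 0.04, edgeR adjusted p = 0.000207). The calls of Ndufs4, Ndufb5 and Ndufv2, at log2 fold changes of 0.10, 0.08 and 0.08, were lost without 1 library. With every library kept, these calls were also lost with DESeq2, with library totals only and with a correction for GC and length. Ndufs4 stood at 0.08 without control replicate 2 and at 0.09 without knockout replicate 2, Ndufb5 at 0.07 without control replicate 1 and at 0.06 without knockout replicate 1, and Ndufv2 at 0.06 without control replicate 3, 0.07 without knockout replicate 1 and 0.06 without knockout replicate 2. Ndufb8 overlaps the annotated gene Gm20538, with which it shares sequence, so its count is uncertain.

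Of the 8 Nduf assembly factors, which help to build complex I but are not part of it, 6 rose and none fell, with a median log2 fold change of 0.27. The highest was Ndufaf5, at 11.1, 10.5 and 9.73 cpm against 14.6, 13.6 and 14.2 cpm (log2 fold change 0.43, SE 0.07, edgeR adjusted p = 2.76e-07). Ndufaf2 followed at 0.41 and Ndufaf4 at 0.40. Ndufaf6 and Ndufaf7 were at 0.04 and 0.07 and were not called. The call of Ndufaf1, at 0.16, was lost without knockout replicate 3 (0.12, edgeR adjusted p = 0.0548). That call was also lost with library totals only and with a correction for GC and length.

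**Figure D2:**
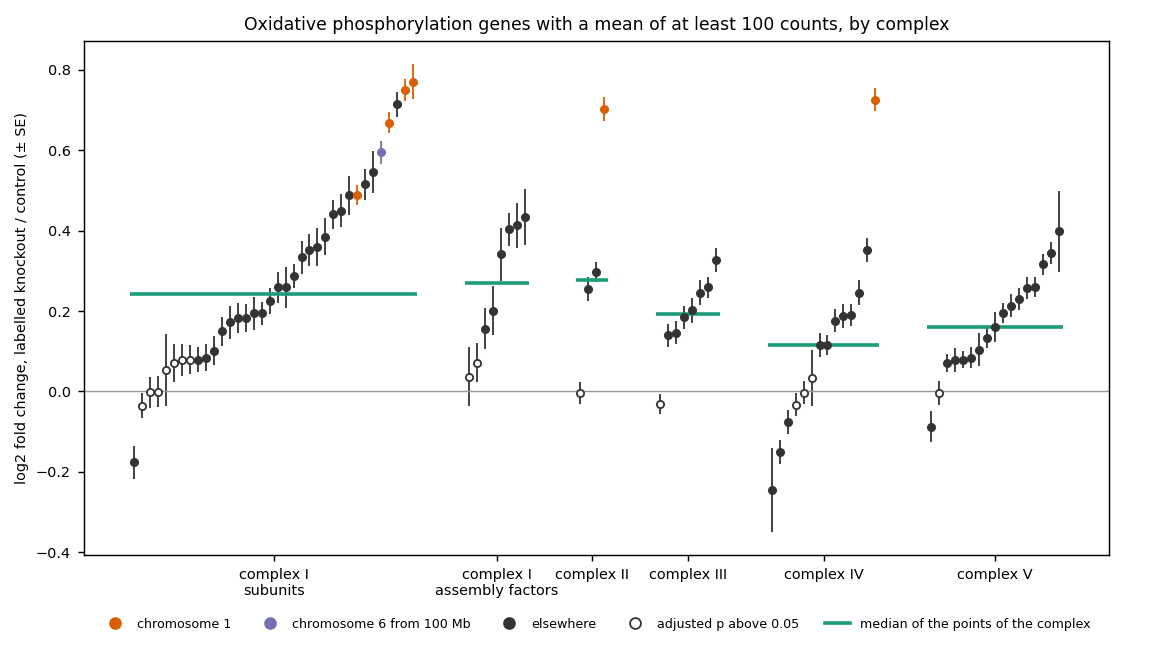
log2 fold change of the libraries labelled knockout over control (y axis, with SE) for the 87 members whose mean count was 100 or more, ordered by value within each complex (x axis). Filled points passed an adjusted p of 0.05, green lines give the median of the points of a complex, colours mark the position on chromosome 1 or the end of chromosome 6, and most points lie above 0, with a median of 0.71 for the 6 members of chromosome 1.

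Complex II oxidises succinate and is also an enzyme of the tricarboxylic acid cycle. Its 4 genes did not move alike. Sdhc, a membrane anchor, was at 88.6, 95.2 and 92.7 cpm in controls and 152, 149 and 149 cpm in the libraries labelled knockout (log2 fold change 0.70, SE 0.03, edgeR adjusted p = 2.08e-26). The flavoprotein gene Sdha went from 247, 247 and 246 cpm to 300, 303 and 306 cpm (log2 fold change 0.30), and the iron-sulfur protein gene Sdhb from 86.0, 84.8 and 84.7 cpm to 101, 102 and 102 cpm (log2 fold change 0.25). Sdhd, the other anchor, was at 130, 131 and 128 cpm against 131, 128 and 129 cpm, with overlapping groups and a log2 fold change of -0.00 (SE 0.03, edgeR adjusted p = 0.917).

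Complex III passes electrons from the quinone pool to cytochrome c. Of its 8 Uqcr genes, 7 rose, with a median of 0.19. Uqcrq, a small subunit, was highest at 87.7, 83.7 and 86.5 cpm against 109, 107 and 107 cpm (log2 fold change 0.33, SE 0.03, edgeR adjusted p = 1.28e-13). The core protein gene Uqcrc2 followed at 0.26, and Uqcrfs1, which codes for the Rieske iron-sulfur protein, was at 0.15. Uqcrc1, the other core protein gene, was at 261, 269 and 263 cpm against 258, 264 and 254 cpm and was not called (log2 fold change -0.03).

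Complex V was the most abundant group, and its changes were small. Of its 17 genes, 15 rose, 1 fell and 1 was not called, with a median of 0.16. Atp5b, the catalytic beta subunit, was at 1933 ± 33.8 cpm (SD, n = 3) in controls and 2042 ± 31.0 cpm in those labelled knockout (log2 fold change 0.08, SE 0.02, edgeR adjusted p = 0.000931). Atp5a1, the alpha subunit, was at 0.07. The largest rises were those of Atp5s, a factor coupled to the complex, at 4.66, 4.77 and 5.03 cpm against 6.82, 6.66 and 5.63 cpm (log2 fold change 0.40, SE 0.10, edgeR adjusted p = 0.000497), and of the delta subunit Atp5d, at 129, 135 and 140 cpm against 174, 169 and 171 cpm (log2 fold change 0.34). The stalk subunit Atp5o, also called OSCP, was at 0.32. When library totals alone set the scale, Atp5a1 and Atp5b were not called. The calls of Atp5k and Atp5j2, at 0.10 and 0.08, were lost without 1 library. Both calls were also lost with DESeq2 and with library totals only, and that of Atp5j2 with a correction for GC and length. Atp5k stood at 0.07 without control replicate 1 and at 0.03 without knockout replicate 3, and Atp5j2 at 0.07 without control replicate 3 and at 0.05 without knockout replicate 3.

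The epsilon subunit Atp5e was the complex V gene that fell. It was at 56.0, 56.8 and 57.3 cpm against 51.5, 50.9 and 57.3 cpm (log2 fold change -0.09, edgeR adjusted p = 0.0405). Its groups overlapped. The call was lost without control replicate 2 (-0.09), control replicate 3 (-0.08), knockout replicate 1 (-0.06) or knockout replicate 2 (-0.06). It was also lost with DESeq2, with no filter on low counts and with TMM factors set without chromosomes 1, 6 and 8.

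Complex IV, which reduces oxygen, held 4 of the 6 genes that fell. With Ndufa4 and its paralog Ndufa4l2 placed here, 18 of its 20 genes were tested, 11 rose and 4 fell, with a median of 0.15. Cox5b was highest among the abundant subunits, at 92.2, 95.9 and 96.2 cpm against 155, 159 and 156 cpm (log2 fold change 0.73, SE 0.03, edgeR adjusted p = 1.54e-27). Cox7a2 followed, at 87.9, 91.1 and 89.1 cpm against 113, 111 and 117 cpm (log2 fold change 0.35). Cox8a went the other way, from 135, 146 and 143 cpm to 130, 128 and 124 cpm (log2 fold change -0.15, SE 0.03, edgeR adjusted p = 1.35e-05). Cox7c had a log2 fold change of -0.08 with overlapping groups. Its call was lost without control replicate 2 (-0.06), knockout replicate 1 (-0.04) or knockout replicate 2 (-0.06). The call was also lost with DESeq2 and with TMM factors set without chromosomes 1, 6 and 8.

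Several complex IV subunits exist as a common form and a form known from particular tissues, and the rare forms are given here beside the common ones. Ndufa4l2, known as a hypoxia-inducible relative of Ndufa4, had 20, 22 and 21 counts in controls and 129, 83 and 88 counts in those labelled knockout (log2 fold change 2.32, SE 0.19, edgeR adjusted p = 2.99e-15). Ndufa4 itself was at 0.19. Per kilobase of exon, the level of Ndufa4l2 was 0.758% ± 0.067 of that of Ndufa4 in controls and 3.32% ± 0.79 in the libraries labelled knockout (SD, n = 3 each). Every library labelled knockout lay well above every control, and the gene remained a small part of the pair.

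Cox4i2, the form of Cox4 best known from lung, had 29, 32 and 25 counts against 40, 44 and 36, while the common form Cox4i1 was at 0.12. The log2 fold change of Cox4i2 was 0.55 (edgeR adjusted p = 0.0158), and its call was lost without control replicate 3 (0.47) or knockout replicate 2 (0.43) and with DESeq2. Cox8c, known from testis, had 2, 2 and 5 counts against 7, 8 and 10. Its call was lost without control replicate 1 (1.28) or control replicate 2 (1.30), with DESeq2 and with another filter on low counts. Without knockout replicate 3, the only library in which it reached 10 counts, Cox8c had too few counts to be tested. It is still counted among the 11 rises of complex IV. Both genes were low in every library.

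The muscle form Cox7a1 had 141, 149 and 155 counts in controls and 114, 115 and 128 in the libraries labelled knockout (log2 fold change -0.24, edgeR adjusted p = 0.0336). Per kilobase it was at 10.6% ± 0.57 of Cox7a2 in controls and 7.01% ± 0.34 in the libraries labelled knockout (SD, n = 3 each). Its call was lost without control replicate 2 (-0.24), control replicate 3 (-0.21), knockout replicate 1 (-0.22) or knockout replicate 3 (-0.25). The call was also lost with DESeq2, with no filter on low counts and with a correction for GC and length. Muscle or heart markers fell in the same libraries, 5 of 5 tested, and their part in the value of Cox7a1 was not tested. Cox7b2 had 25, 14 and 17 counts against 7, 4 and 12 (log2 fold change -1.20, SE 0.37, edgeR adjusted p = 0.00379), and its common form Cox7b was at -0.03. Cox6b1 and Cox6b2 were at -0.00 and 0.03 and were not called. The 3 genes for the c ring of complex V, which code for the same mature protein, all rose, with log2 fold changes of 0.21 for Atp5g1, 0.08 for Atp5g2 and 0.13 for Atp5g3, and the call of Atp5g2 was lost with library totals alone (0.04).

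**Figure D3:**
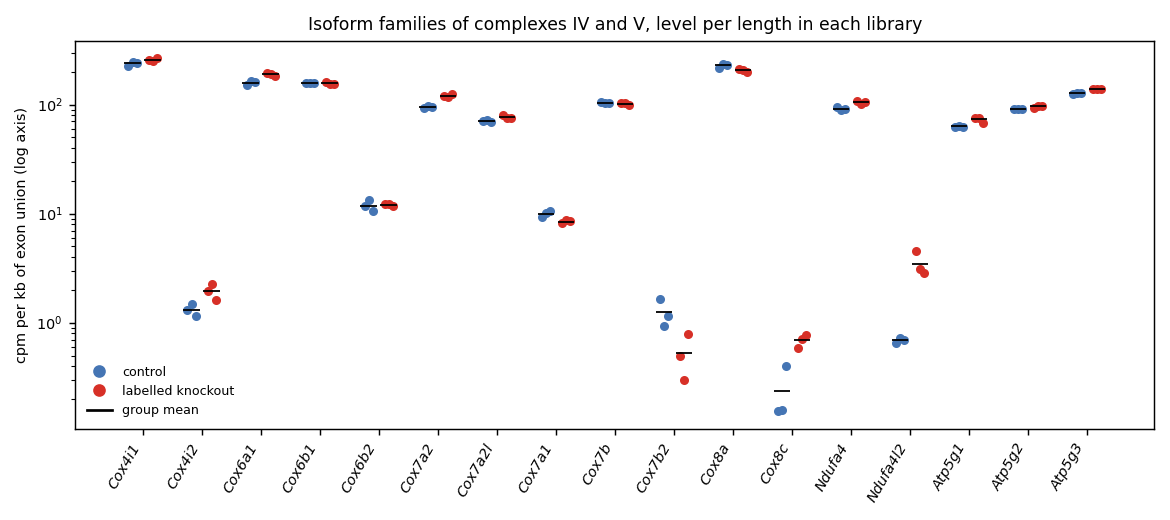
Level of each isoform gene in cpm per kilobase of exon union (y axis, log scale), with a point per library and a line at each group mean (n = 3 per group). The common forms lie far above the rare ones, and Ndufa4l2 shows the widest separation between the groups.

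Position went with the size of the rise. The 6 members on chromosome 1, among them Ndufb3, Ndufa10, Cox5b, Sdhc and Ndufs1, had a median log2 fold change of 0.71, and all 1086 genes tested on that chromosome had a median of 0.49, with 62.6% higher and 15.9% lower. Ndufa9, at 0.59, lies on chromosome 6 beyond 100 Mb, where the median of all genes tested was 0.48. The copy number of these regions was not measured and its part was not tested. Of the 84 members tested outside both regions, 63 rose and 6 fell, with a median of 0.19, and for complex I subunits alone the median there was 0.19. Ndufb9 on chromosome 15, Ndufs5 on chromosome 4 and Ndufv3 on chromosome 17 were the highest abundant members elsewhere, at 0.71, 0.55 and 0.51.

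Near-identical copies among annotated transcripts of other counted genes were found for 26 members (at least 95% identity over at least 76 bases). A copy here can be a short stretch of the longest transcript, and copies outside annotated transcripts were not sought. Fragments with several locations were not counted. The median was 0.19 with and without such a copy, and of the 65 members tested without a copy of this kind 50 rose and 5 fell.

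The promoters below are shown because NRF1, a transcription factor known for its sites in genes of the respiratory chain, could be looked for by its letters. RefSeq windows of 250 bases before to 50 bases after the start (GRCm38.p6) were matched for 76 of the 93 members. The NRF1 motif, searched on both strands, was in 19 of these 76 windows and in 7.17% of the windows of 17491 protein-coding genes. Shown are the 3 members with this motif that had the highest log2 fold changes, and Ndufa6, which fell. Ndufs5 lies at chr4:123718137-123718436 (minus strand), Ndufb4 at chr16:37654319-37654618 (minus), Ndufaf5 at chr2:140170396-140170695 (plus) and Ndufa6 at chr15:82354242-82354541 (minus), and capitals mark the motif on either strand.
Ndufs5: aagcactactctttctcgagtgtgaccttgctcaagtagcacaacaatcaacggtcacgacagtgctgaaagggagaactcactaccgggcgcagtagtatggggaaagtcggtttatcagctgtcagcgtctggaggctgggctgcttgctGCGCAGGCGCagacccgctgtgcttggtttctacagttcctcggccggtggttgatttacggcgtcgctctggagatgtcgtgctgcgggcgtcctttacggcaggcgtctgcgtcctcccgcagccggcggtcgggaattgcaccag
Ndufb4: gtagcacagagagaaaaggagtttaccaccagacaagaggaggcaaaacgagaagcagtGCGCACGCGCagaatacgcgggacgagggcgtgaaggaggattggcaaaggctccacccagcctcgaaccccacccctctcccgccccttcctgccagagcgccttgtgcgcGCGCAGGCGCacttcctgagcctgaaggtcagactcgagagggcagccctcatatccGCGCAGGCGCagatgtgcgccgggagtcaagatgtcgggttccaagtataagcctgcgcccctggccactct
Ndufaf5: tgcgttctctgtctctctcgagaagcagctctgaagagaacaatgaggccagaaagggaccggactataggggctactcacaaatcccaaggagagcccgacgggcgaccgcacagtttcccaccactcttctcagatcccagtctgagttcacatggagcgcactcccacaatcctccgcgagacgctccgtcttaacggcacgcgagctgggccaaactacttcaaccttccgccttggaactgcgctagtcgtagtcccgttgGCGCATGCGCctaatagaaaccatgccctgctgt
Ndufa6: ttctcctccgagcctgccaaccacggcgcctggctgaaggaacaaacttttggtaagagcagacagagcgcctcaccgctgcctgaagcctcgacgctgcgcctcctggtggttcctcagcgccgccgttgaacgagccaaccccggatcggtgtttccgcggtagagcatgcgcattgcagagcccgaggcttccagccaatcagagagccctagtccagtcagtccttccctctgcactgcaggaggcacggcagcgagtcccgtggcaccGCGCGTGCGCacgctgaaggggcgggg

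Ndufb4 held the motif 3 times and the other 3 windows held it 1 time each. Members with and without the motif had similar values, with medians of 0.20 and 0.18 and with 13 of 19 and 42 of 56 higher. The ETS motif CCGGAAG was in 23.7% of the members' windows and 12.9% of all, the YY1 motif in 6.58% and 1.06%, and the TATA box TATAAA in 9.21% and 14.8%. A match describes the letters of a window and not binding.

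The mitochondrial side of the comparison could only be seen through copies. On chromosome 1, 7 adjacent rows are unprocessed pseudogenes that copy mitochondrial genes, between 99.7% and 100% identical to them over the aligned bases. Gm28438 copies mt-Nd3 with 1 mismatched base in 345, shown in capitals in the stretch that holds it, with both sequences read from the reference.
Gm28438: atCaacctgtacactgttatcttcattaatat
mt-Nd3: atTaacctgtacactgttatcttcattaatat

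These rows took 1.67% ± 0.038 of all counts in controls and 1.99% ± 0.011 in the libraries labelled knockout (SD, n = 3 each). All 7 rose, with log2 fold changes from 0.13 for Gm29216, the copy of mt-Co1, to 0.47 for Gm28661, the copy of mt-Co2. Of all 1086 genes tested on chromosome 1, 62.6% were higher, with a median of 0.49, so all 7 values lay below that median. From counts it cannot be told whether the fragments came from chromosome 1 or from the mitochondrial genome, so nuclear and mitochondrial members were not compared.

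Genes that serve the same complexes without being members were described by list. For comparison, 34.4% of all genes tested rose and 35.2% fell. Among genes with a mean count of 1000 or more, 46.5% rose and 32.8% fell. Of 9 complex I assembly factors not named Nduf, 4 rose and 2 fell (median 0.09), with Foxred1 at 0.53, Nubpl at 0.52 and Ecsit at -0.38. Of 8 other genes of complex III and cytochrome c, 6 rose and 1 fell (median 0.22). Lyrm7, a gene with low counts outside chromosome 1, had the highest log2 fold change of this list. The complex III assembly factor Bcs1l followed at 1.12 on chromosome 1, and cytochrome c itself, Cycs, was at 0.26. Of 19 genes of complex IV assembly and copper delivery, 9 rose and 4 fell (median 0.08). Cox20 was at 0.99 and Coa5 at 0.75, both on chromosome 1, and Pet100 was at -0.58 on chromosome 8. The shares higher, 47.4% here and 44.4% for the complex I list, were near that of genes with a mean count of 1000 or more. Complex II assembly gave 2 higher of 4 (median 0.29), among them Sdhaf4 on chromosome 1, and the median outside chromosome 1 and the end of chromosome 6 was 0.16. ATP synthase assembly gave 1 of 4 (median -0.01), which was Tmem70 on chromosome 1, and the median outside both regions was -0.08.

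Among genes that build and supply the mitochondrion, 44 of 76 mitochondrial ribosomal protein genes rose and 11 fell (median 0.12). In mitochondrial DNA maintenance and transcription 10 of 18 rose and 2 fell (median 0.25), with the rRNA methyltransferase gene Tfb1m at 0.89. In mitochondrial RNA processing 12 of 17 rose and 2 fell (median 0.15). In the tricarboxylic acid cycle 10 of 16 rose and 1 fell (median 0.10), with fumarase, Fh1, at 0.89 on chromosome 1. Import and outer membrane genes gave 9 of 18 higher and 6 lower (median 0.07). Hspe1 was at 0.57 and Timm17a at 0.51, both on chromosome 1, and Timm44 was at -0.53 on chromosome 8. Outside both regions the median of the import and outer membrane genes was -0.01. The carriers of adenine nucleotides and phosphate ran the other way, with 3 of 4 lower (median -0.15). Among them were Slc25a3 at -0.18 on chromosome 10 and Slc25a4 at -0.16 on chromosome 8. The genes of chromosome 8 were not described as a whole, and the part of position in these falls was not tested. Of 10 nuclear regulators of mitochondrial genes, 3 rose and 3 fell (median 0.00), with Myc at -0.68, Tfe3 at -0.42 and the coactivator gene Ppargc1b at 0.51.

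**Figure D4:**
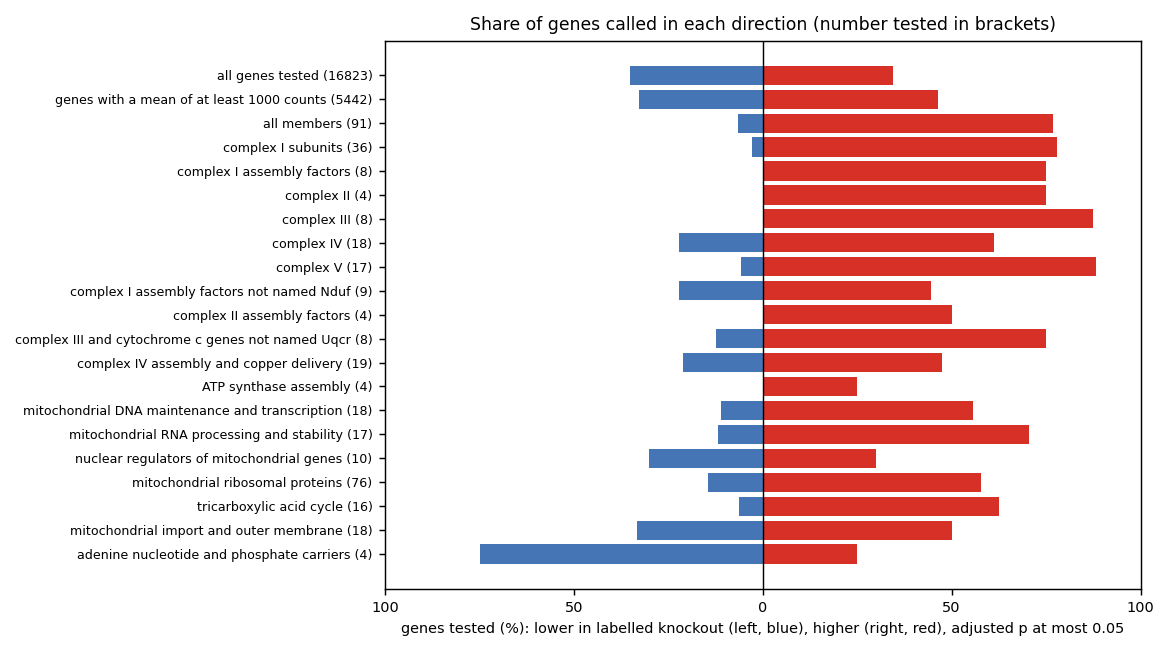
Percent of genes tested that were called higher (right, red) or lower (left, blue) in the libraries labelled knockout (x axis), for all genes, the members, each complex and related lists (y axis, number tested in brackets). The members as a whole show 76.9% higher and 6.59% lower, and the carriers are the list with the largest share of genes on the lower side.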

How the data were processed

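Polyadenylated RNA of 6 lines (3 control, 3 labelled knockout) was measured. According to the labels and methods, the authors removed rRNA reads with Bowtie2 2.1.0, mapped to mm10 with TopHat2 2.0.10 and counted fragments per GENCODE M4 gene with HTSeq 0.6.1 (union, stranded), discarding fragments on the antisense strand, in several genes or at several locations. What the authors deposited are raw counts. Molecular identifiers were not used, so PCR duplicates are counted and counting error is a lower limit.

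Symbols and coordinates came from GENCODE M21 (GRCm38), matching 42425 of 43309 genes. A gene was tested if any library held 10 counts or more. The test was edgeR 4.0.16 (TMM, glmQLFit, glmQLFTest) in R 4.3.3, and p-values were adjusted by Benjamini-Hochberg over all 16823 genes tested. The methods name edgeR without saying which test. The SE is the log2 fold change divided by the square root of F. On simulated counts the fit recovered most changed genes and fewer of those with the smallest change. Its share of false calls there was somewhat above the threshold set. The simulation changed only a small part of the genes, whereas 11697 of 16823 genes tested were called in the data. Its rates therefore do not describe these data. Levels are TMM-scaled CPM (cpm, by the cpm function of edgeR), divided by exon union length where genes are compared. Near-identical copies were sought among annotated transcripts with blastn 2.17.0. DESeq2 1.42.0, other scalings and filters, a replicate block and leaving out each library were alternatives. Replicate numbers did not pair the libraries.

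Members and lists were chosen with earlier results of these data known. Values were given in full for the Sdh genes, the isoform families and the largest rises and falls per complex among called members with a mean of at least 100 counts, and for up to 3 called genes per related list. Other members named were chosen after their values were seen. Mitochondrially encoded genes were not analysed here. The values of 1 member are not reported here.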

Additional observations from a re-analysis of the deposited data

Results flagged for a closer look

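The 7 rows on chromosome 1 that copy mitochondrial genes lie outside the comparison of the members and held more signal in the libraries labelled knockout than in the control libraries. They took 1.99% ± 0.011 of counted fragments (SD, n = 3) against 1.67% ± 0.038 (SD, n = 3) in controls, with no overlap, and the origin of the fragments cannot be told from the counts. Genes of chromosome 1 were higher in general, with 62.6% of those tested called higher. Groups of 3 libraries are too small for a check of single outlying values.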

How the results depend on the processing

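Across 19 alternative fits, 59 of the 70 higher calls and 3 of the 6 lower calls were kept in every one. Among these fits, TMM without the mitochondrial chromosome was the main fit again, since no row lies on that chromosome. The number of members lower was 3 with DESeq2, 3 at an FDR of at most 0.01, 9 with library totals only (61 higher), 8 with a GC and length correction (67 higher) and 4 with TMM factors set without chromosomes 1, 6 and 8 (72 higher), and leaving out 1 library gave 3 to 6. When a log2 fold change of 0.5 or more in size was also required, 13 members stayed called, 12 higher and 1 lower. The median log2 fold change of the members was 0.15 with library totals only, 0.21 with TMM factors set without chromosomes 1, 6 and 8, 0.18 with a GC and length correction and 0.18 with that correction and a replicate block, and 0.19 to 0.21 without 1 library. The log2 ratio of summed levels was 0.19, and 0.14 with library totals only, 0.21 without the most abundant member and 0.15 outside chromosomes 1, 6 and 8. Per kilobase of exon union, in controls, Cox4i2 was at 0.552% of Cox4i1, Cox6b2 at 7.48% of Cox6b1 and Cox7a1 at 10.6% of Cox7a2. On the same measure Atp5g2 was at 144% and Atp5g3 at 202% of Atp5g1. With the longest transcript as the length, these 5 values were 0.293%, 12.4%, 8.15%, 308% and 490%, in the same order. Of the 15 members that were not called, 9 turned sign in at least 1 of these fits, and 5 did so with TMM factors set without chromosomes 1, 6 and 8, which moved the median of all genes from -0.00 to 0.01. Among those followed singly, 3 turned. The log2 fold change of Cox6b1 was 0.0114 with TMM set without chromosomes 1, 6 and 8, 0.00187 with no filter on low counts and between -0.0181 and 0.00612 when 1 library was left out. The log2 fold change of Cox6b2 was -0.0155 with library totals and between -0.0465 and 0.120 when 1 library was left out. The log2 fold change of Sdhd was 0.0112 with TMM set without chromosomes 1, 6 and 8, 0.00160 with no filter on low counts and between -0.0156 and 0.00702 when 1 library was left out. The causes of these turns were not tested.

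Same-numbered libraries deviated together with correlations of 0.005, 0.075 and 0.012, so the numbers do not pair them. With the replicate block, 77 members were called in place of 76 and 11801 genes in place of 11697. The share of mitochondrially encoded transcripts could not be computed. Leaving out members with a near-identical copy, or those on chromosome 1 and the end of chromosome 6, was chosen after seeing the data.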
